A study of Mus musculus with 2 samples.

Results

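The 9 genes described here are Kat8, which encodes the lysine acetyltransferase KAT8, and 8 autosomal genes for subunits of its chromatin complexes: Msl1, Msl2, Kansl1, Kansl2, Kansl3, Phf20, Mcrs1 and Wdr5. They are 9 of 21887 protein-coding genes on standard chromosomes, and were taken by name. All KAT8 peaks with any base from 10 kb before to 10 kb after each gene were collected. These windows held 17 of the 52001 peaks of the untreated list and 17 of the 44772 peaks of the R848 list. The assay was CUT&Tag, where an antibody to KAT8 brings a transposase that cuts and tags the nearby DNA. The cells were primary mouse macrophages of WT genotype, as the series' design text has it, grown from bone marrow in medium with 20 ng/ml M-CSF. One library came from untreated cells, and the other from cells given 100 ng/ml R848, an agonist of the endosomal RNA sensor TLR7, for 2 h. Neither group had a replicate, so every difference between the lists compares 2 libraries, has no replicate check and carries no p-value.

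KAT8 is a MYST-family acetyltransferase best known for acetylating histone H4 at lysine 16. It works in a pair of complexes. In the MSL complex, MSL1 is the scaffold and MSL2 a RING-finger ubiquitin ligase. In the NSL complex, KANSL1 is the scaffold that holds KAT8, and KANSL2, KANSL3, PHF20, a reader of methylated lysine, MCRS1 and WDR5 are further subunits. WDR5 is also a core subunit of the MLL/SET1 histone H3 lysine 4 methyltransferases. NSL subunits are known to sit at promoters of housekeeping genes in other cell types.

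The promoters of 6 members are printed because the results turn on whether a peak lies on them. Each is 300 bases long, from RefSeq in build GRCm38.p6 (the assembly of mm10), and runs in the direction of the gene from 250 bases before an annotated start to 50 bases after it. Capitals mark the bases that lie under peaks of both lists, except in Wdr5, where they mark the bases under the R848 peak. Kat8 has no capitals because no peak of either list reached its promoter.
Kat8, first annotated start, chr7:127912267-127912566, plus strand: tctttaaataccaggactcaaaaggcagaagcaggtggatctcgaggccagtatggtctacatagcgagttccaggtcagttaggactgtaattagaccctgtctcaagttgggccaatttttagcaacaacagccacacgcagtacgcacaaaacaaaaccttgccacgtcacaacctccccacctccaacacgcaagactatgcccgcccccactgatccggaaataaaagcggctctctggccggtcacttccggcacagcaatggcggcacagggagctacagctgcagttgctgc
Msl2, first annotated start, chr9:101073804-101074103, plus strand: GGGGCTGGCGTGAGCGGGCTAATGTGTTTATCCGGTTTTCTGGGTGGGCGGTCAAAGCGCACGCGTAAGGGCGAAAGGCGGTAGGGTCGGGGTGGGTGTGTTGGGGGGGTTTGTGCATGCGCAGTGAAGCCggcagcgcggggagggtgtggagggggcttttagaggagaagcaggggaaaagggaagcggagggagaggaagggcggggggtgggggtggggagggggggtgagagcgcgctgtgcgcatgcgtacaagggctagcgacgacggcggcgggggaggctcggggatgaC
Kansl2, chr15:98534220-98534519, minus strand: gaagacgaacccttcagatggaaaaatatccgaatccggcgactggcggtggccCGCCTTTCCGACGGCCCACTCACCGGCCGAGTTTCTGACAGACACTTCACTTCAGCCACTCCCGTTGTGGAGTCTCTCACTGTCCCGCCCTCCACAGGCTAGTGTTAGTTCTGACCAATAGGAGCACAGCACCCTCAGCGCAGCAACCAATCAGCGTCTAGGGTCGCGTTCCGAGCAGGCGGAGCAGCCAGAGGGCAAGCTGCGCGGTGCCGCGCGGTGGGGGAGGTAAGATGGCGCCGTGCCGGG
Phf20, chr2:156196397-156196696, plus strand: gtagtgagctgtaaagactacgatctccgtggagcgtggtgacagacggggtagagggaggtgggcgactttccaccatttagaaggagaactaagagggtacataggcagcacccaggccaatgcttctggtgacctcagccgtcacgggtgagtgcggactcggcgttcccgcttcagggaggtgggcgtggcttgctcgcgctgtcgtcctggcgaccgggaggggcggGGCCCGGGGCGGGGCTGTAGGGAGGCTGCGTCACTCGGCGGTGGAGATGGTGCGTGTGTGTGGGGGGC
Mcrs1, chr15:99251912-99252211, minus strand: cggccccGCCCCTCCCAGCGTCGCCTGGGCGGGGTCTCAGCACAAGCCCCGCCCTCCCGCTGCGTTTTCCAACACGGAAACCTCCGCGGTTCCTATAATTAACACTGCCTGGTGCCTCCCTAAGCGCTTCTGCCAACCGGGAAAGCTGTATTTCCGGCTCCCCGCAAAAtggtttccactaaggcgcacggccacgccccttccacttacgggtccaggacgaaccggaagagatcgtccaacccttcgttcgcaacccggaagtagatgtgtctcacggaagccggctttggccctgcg
Wdr5, chr2:27514897-27515196, plus strand: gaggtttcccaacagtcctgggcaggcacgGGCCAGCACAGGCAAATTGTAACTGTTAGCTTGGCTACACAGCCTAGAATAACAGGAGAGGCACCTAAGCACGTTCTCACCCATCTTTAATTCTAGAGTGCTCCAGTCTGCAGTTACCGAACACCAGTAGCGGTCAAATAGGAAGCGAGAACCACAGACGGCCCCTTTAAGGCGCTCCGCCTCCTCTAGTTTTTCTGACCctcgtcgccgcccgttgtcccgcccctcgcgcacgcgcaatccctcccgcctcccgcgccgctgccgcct

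In Kansl2 246 of the 300 bases lay under both peaks, in Mcrs1 162, in Msl2 132 and in Phf20 68, and in Wdr5 200 lay under the R848 peak.

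The comparison of the libraries asks where KAT8 lay in resting macrophages and after TLR7 stimulation, here at the genes of its own complexes. Of the 9 genes, 7 had a peak within 1000 bp of an annotated start before stimulation, and 7 had one after it. Both lists had one at Msl2, Kansl1, Kansl2, Kansl3, Phf20 and Mcrs1. Msl1 had a start peak in the untreated list only, and Wdr5 in the R848 list only. Kat8 itself had no start peak in either list. Of 17492 protein-coding genes with an annotated start, 28.7% had such a peak in the untreated list, against 24.1% in the R848 list and 17.9% in both. One in a single list was found for 17.1% of these genes, as at Msl1 and Wdr5, and 65% had none in either list, as at Kat8.

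CpG-rich starts carried peaks more often at large, and the members' starts are CpG-rich. The 300-base promoters of the members (14 annotated starts) held a median of 26 CpG dinucleotides and 64% G and C, against 7 and 52.7% over 32851 promoters. Of the 9 members, 8 had a start with at least 20 CpG, a limit chosen after the values were seen, and Kat8 had none. Among 6803 protein-coding genes with such a start, 50.5% had a start peak in the untreated list, against 43.5% in the R848 list and 34.9% in both. Among 10689 genes without one the shares were 14.9%, 11.8% and 7.05%. The part of CpG content in the members' counts was not tested, and with no control library at hand KAT8 binding and cutting of open chromatin cannot be told apart.

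**Figure D1:**
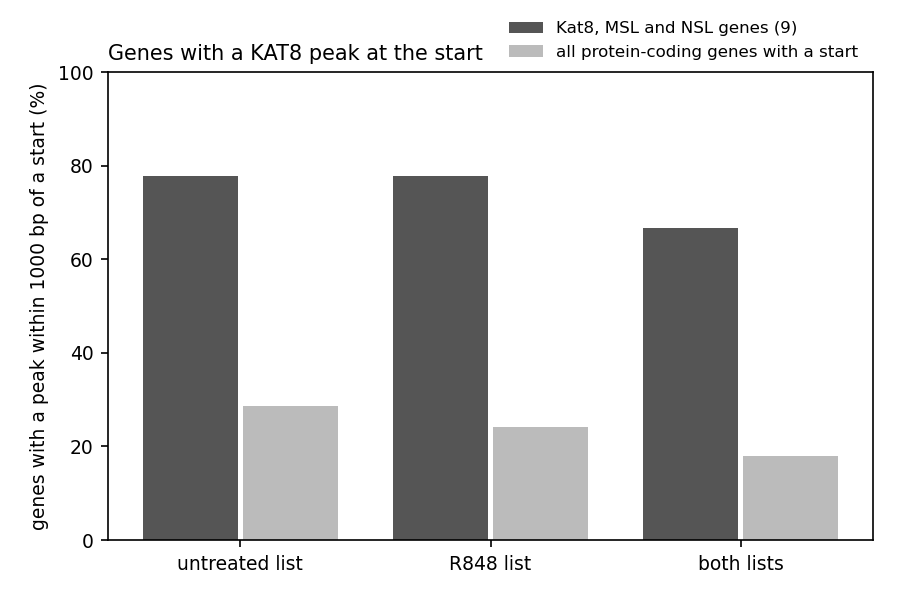
Percentage of genes with a KAT8 peak within 1000 bp of an annotated start, for the 9 members (dark) and for all 17492 protein-coding genes with a start (light), in each list and in both. The members stand at 7, 7 and 6 of 9, and all genes at 28.7%, 24.1% and 17.9%.

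Each member had at least 1 peak somewhere in its 10 kb window in each list. Such windows held a peak for 64% of all protein-coding genes in the untreated list, 58.7% in the R848 list and 48.8% in both. The member windows were 29145 to 156008 bp long. For genes with windows of 25 to 60 kb, the range of 7 members, 45.2% had a peak in both lists, and for windows over 60 kb, as at Kansl1 and Phf20, 71.7% had.

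**Figure D2:**
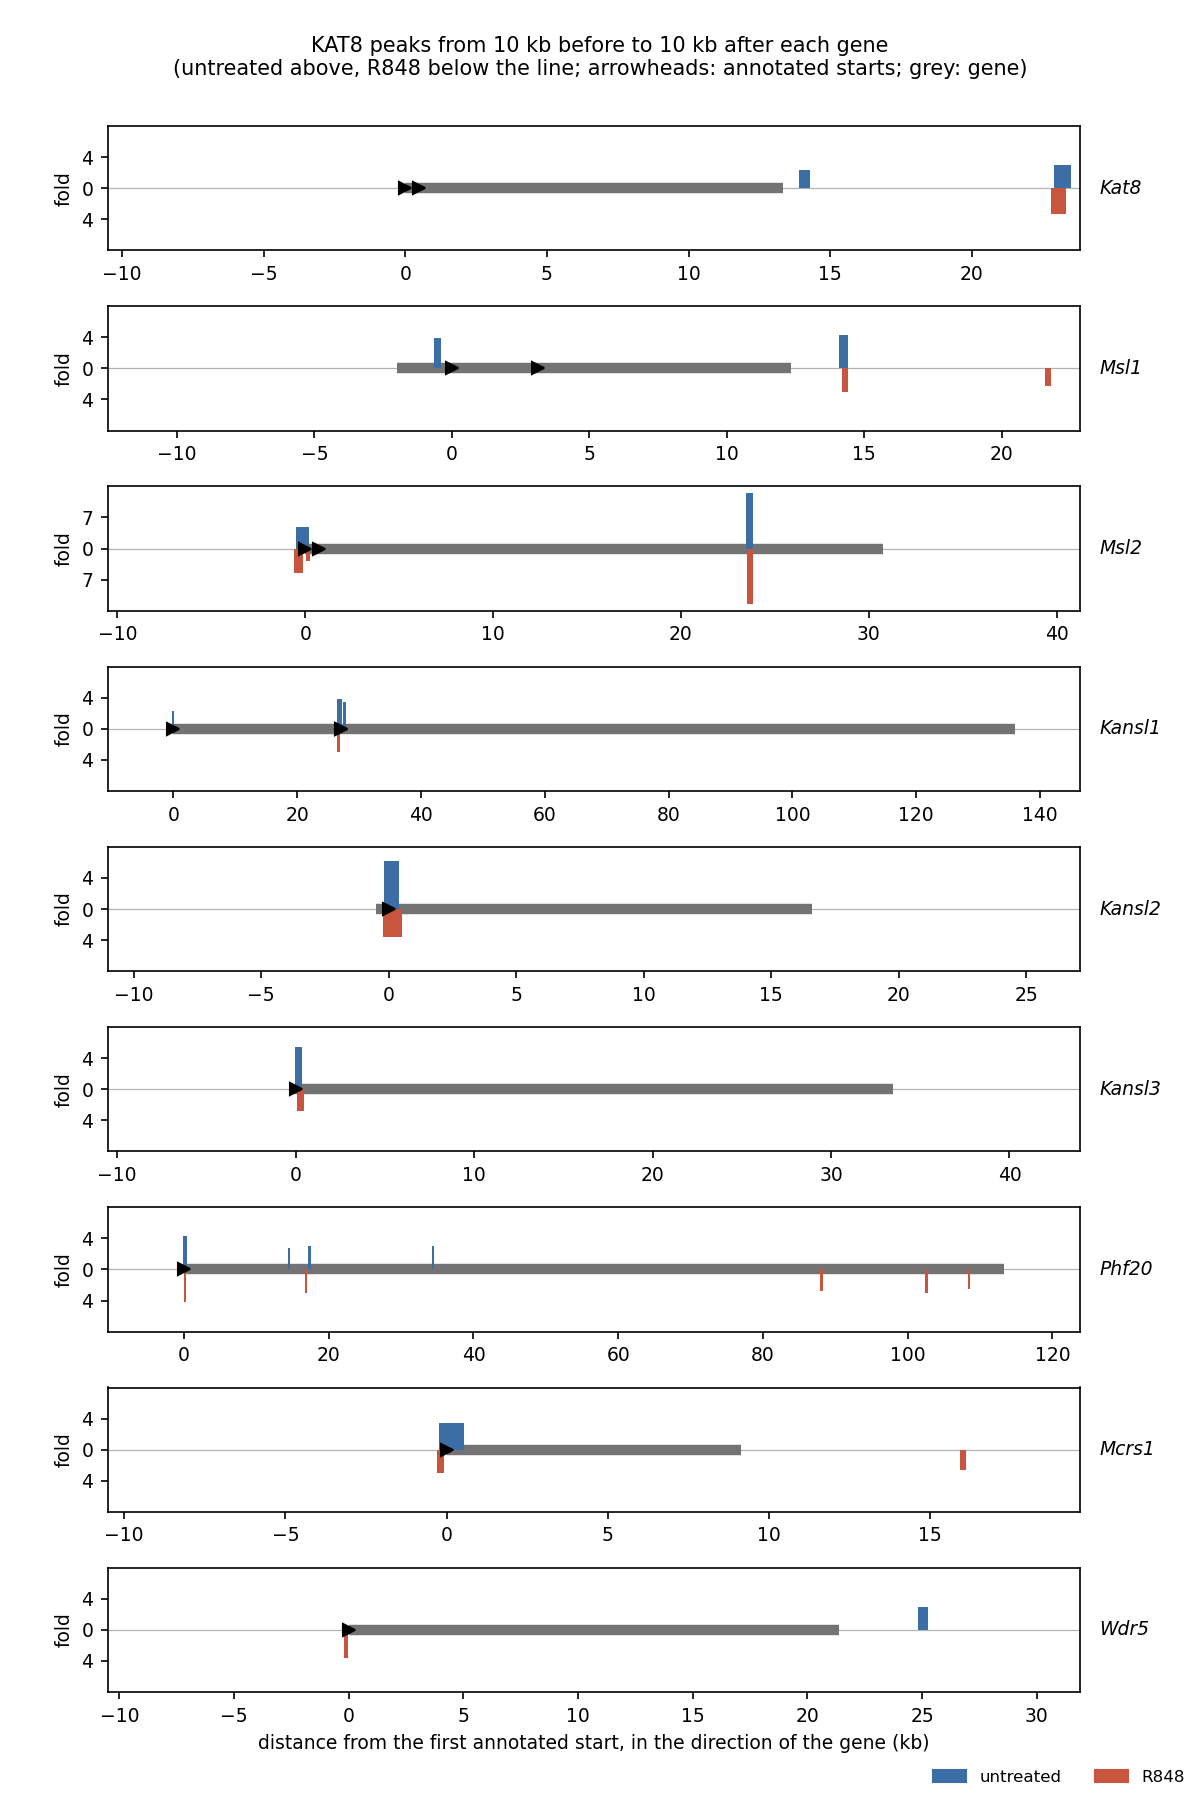
KAT8 peaks in the windows of the 9 genes by distance from the first annotated start in the direction of the gene (kb), with the authors' fold over background as bar height, untreated above and R848 below the line; grey bars are genes, arrowheads annotated starts, and the narrowest bars are widened so that they can be seen. Start peaks appear in both directions at 6 genes, the tallest bars lie inside Msl2 at folds of 12.4 in both lists, and Kat8 has peaks only beyond its end.

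For each peak the authors deposited a fold over background (column 7), the −log10 of its p-value (column 8) and of its q-value (column 9). These describe a peak within its list and do not measure a change. The names of the R848 peaks carry both time points, and the sources used here do not say whether the untreated library was pooled into that list or served as its control. If it did, each R848 fold, pileup and shared or R848-only call would mean something else; they are read here as the label gives them. The number of overlapping fragments at the summit, the pileup, was solved from fold and p. The lowest background was 3.37 fragments before and 2.62 after R848, a ratio of 1.29, and the lowest pileup called was 8 and 7. By pileup alone, a place with no R848 peak can thus still hold up to 6 overlapping fragments at the lowest background. One with no untreated peak can hold up to 7. No peak in the member windows was narrower than 200 bp in either list. Whether shorter stretches with more fragments also went uncalled is not known. Over all peaks the median fold was 2.75 and 3.04 and the median width 281 bp in both lists.

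Kat8 lies on chromosome 7 at 127912517 to 127925838, plus strand, with annotated starts at 127912517 and 127913014. From the second of these, the nearest peak was 13409 bp away in the untreated list and 22304 bp away in the R848 list, in both cases in the direction of the gene and past its end. The untreated peak at 127926423 to 127926798 was 376 bp wide with its summit at 127926618. It had a fold of 2.29, a −log10 p of 2.60, a −log10 q of 0.163 and a pileup of 9 fragments. Its summit lay 780 bp past the end of Kat8 and inside Prss8, a serine protease gene whose own end is within 1000 bp. No R848 peak overlapped it, and at the R848 library's depth 9 untreated fragments correspond to 6.996, at the edge of what that list can show.

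A second untreated peak reached the edge of the Kat8 window at 127935409 to 127936021 (613 bp, summit 127935843). It had a fold of 2.98, a −log10 p of 4.28, a −log10 q of 1.26 and a pileup of 12. The R848 peak that overlapped it by 431 bp lay at 127935318 to 127935839 (522 bp, summit 127935458), with a fold of 3.32, a −log10 p of 4.70, a −log10 q of 1.51 and a pileup of 11. Both summits were inside Prss36, another serine protease gene, 10005 and 9620 bp past the end of Kat8. These peaks thus lie in neighbouring genes, and none of the 3 peaks had its summit inside Kat8.

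Of the MSL genes, Msl2 carried the strongest peaks of the set. Msl2 lies on chromosome 9 at 101074054 to 101104800, plus strand. An untreated peak at 101073564 to 101074256 (693 bp, summit 101073761) covered the first start, with a fold of 4.81, a −log10 p of 10.02, a −log10 q of 6.25 and a pileup of 20. The R848 list had a pair of peaks in its place. The one before the start, 101073434 to 101073934 (501 bp, summit 101073677), had a fold of 5.53, a −log10 p of 11.1, a −log10 q of 7.18 and a pileup of 19. The one just after it, 101074103 to 101074319 (217 bp, summit 101074148), had a fold of 2.76, a −log10 p of 3.40, a −log10 q of 0.581 and a pileup of 9. The stronger summits of the lists were 84 bp apart, 293 and 377 bp before the start. An end of the pseudogene Gm46140 lay within 1000 bp of these summits.

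Deep inside Msl2, 22937 bp past its second annotated start, both lists had a much taller peak. That of the untreated list, 101097544 to 101097866 (323 bp, summit 101097699), had a fold of 12.4, a −log10 p of 45.2, a −log10 q of 40.8 and a pileup of 54. The R848 peak at 101097568 to 101097876 (309 bp, summit 101097733) had a fold of 12.4, a −log10 p of 38.4, a −log10 q of 34.0 and a pileup of 44. The summits were 34 bp apart, and by fold the peaks ranked 218 of 52001 and 217 of 44772. No gene end of any kind lay within 1000 bp of them. Peaks were not screened for repeated sequence, whose part in this height was not tested.

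Msl1, on chromosome 11 at 98793508 to 98807862, plus strand, had a start peak in untreated cells only. The peak at 98794861 to 98795107 (247 bp, summit 98794965) had a fold of 3.89, a −log10 p of 6.96, a −log10 q of 3.47 and a pileup of 16. Its summit was 551 bp before the first start in the promoter table (98795516) and 1457 bp inside the annotated span of the gene. The nearest R848 peak to that start was 14205 bp away. The 16 fragments have an exact Poisson 95% interval of 9.15 to 26.0, which covers counting error only. At the R848 depth the lower bound is 7.11 fragments, against a lowest called pileup of 7. No other peak of 1 list only in the 9 windows had its lower bound above the other list's lowest called pileup. The counting error of the R848 library itself is left out of this comparison. It therefore cannot tell a lost peak from one missed by counting error.

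The other Msl1 peaks lay past the gene, near or inside Casc3, which encodes a core component of the exon junction complex. The untreated peak at 98809590 to 98809911 (322 bp, summit 98809716) had a fold of 4.35, a −log10 p of 8.45, a −log10 q of 4.797 and a pileup of 18. The overlapping R848 peak at 98809721 to 98809925 (205 bp, summit 98809845) had a fold of 3.04, a −log10 p of 4.03, a −log10 q of 1.01 and a pileup of 10. A further R848 peak inside Casc3, at 98817094 to 98817293 (200 bp, summit 98817222), had a fold of 2.21, a −log10 p of 2.25, a −log10 q of 0 and a pileup of 7, the lowest that list called. The untreated summit of the shared peak lay inside the long non-coding RNA gene Gm12359 and the R848 summit inside both Gm12359 and Casc3. Both are within 1000 bp of an end of each gene, so the place of this peak in the Msl1 window does not tie it to Msl1.

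Kansl2 had the most significant start peak of the set in the untreated list. The gene lies on chromosome 15 at 98517658 to 98534770, minus strand, with a start at 98534269. The untreated peak at 98533860 to 98534465 (606 bp, summit 98534171) had a fold of 6.18, a −log10 p of 15.2, a −log10 q of 11.2 and a pileup of 26. The R848 peak at 98533747 to 98534490 (744 bp, summit 98534045) contained it whole, with a fold of 3.59, a −log10 p of 5.41, a −log10 q of 2.07 and a pileup of 12. Both covered the start, and the summits lay 98 and 224 bp past it. No other peak of either list lay in the window.

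Kansl3, on chromosome 1 at 36335730 to 36369193, minus strand, likewise had its start peak as its only peak in each list. In untreated cells the peak at 36368845 to 36369206 (362 bp, summit 36369037) had a fold of 5.49, a −log10 p of 12.5, a −log10 q of 8.62 and a pileup of 23. The R848 peak at 36368693 to 36369094 (402 bp, summit 36368777) had a fold of 2.76, a −log10 p of 3.40, a −log10 q of 0.581 and a pileup of 9. They overlapped by 250 bp. The untreated peak covered the start at 36369181. In the direction of the gene the R848 peak began 87 bp past that start, with its summit 404 bp past it.

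Kansl1, the longest member (136008 bp, chromosome 11, 104333501 to 104469508, minus strand), has annotated starts in separate places. At the upstream start, 104469443, the untreated list had a weak peak at 104469429 to 104469628 (200 bp, summit 104469584), with a fold of 2.29, a −log10 p of 2.60, a −log10 q of 0.163 and a pileup of 9. The R848 list had none there, the nearest being 15448 bp away. The stronger peaks were at the inner starts, 104442320 and 104442291.

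At the inner starts of Kansl1 the untreated peak at 104442131 to 104442988 (858 bp, the widest of the set, summit 104442806) had a fold of 3.89, a −log10 p of 6.96, a −log10 q of 3.47 and a pileup of 16. The R848 peak at 104442522 to 104442970 (449 bp, summit 104442854) lay wholly within it, with a fold of 3.04, a −log10 p of 4.03, a −log10 q of 1.01 and a pileup of 10. Their summits were 48 bp apart, 486 and 534 bp before the start at 104442320. A second untreated peak, 104441669 to 104441877 (209 bp, summit 104441865), lay 426 bp past the start at 104442291, with a fold of 3.43, a −log10 p of 5.57, a −log10 q of 2.28 and a pileup of 14. It overlapped no R848 peak.

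Phf20 (chromosome 2, 156196647 to 156309953, plus strand) had nearly matching start peaks. The untreated peak at 156196444 to 156197103 (660 bp, summit 156196838) had a fold of 4.35, a −log10 p of 8.45, a −log10 q of 4.797 and a pileup of 18. The R848 peak at 156196629 to 156196968 (340 bp, summit 156196797) lay inside it, with a fold of 4.14, a −log10 p of 6.91, a −log10 q of 3.34 and a pileup of 14. Both covered the start, with summits 191 and 150 bp past it.

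The body of Phf20, 113307 bp long, held 3 further untreated and 4 further R848 peaks. None overlapped a peak of the other list, as 31% of all untreated and 35.8% of all R848 peaks did. The untreated ones were 200 to 209 bp wide. That at 156211073 to 156211272 (200 bp, summit 156211181) had a fold of 2.75, a −log10 p of 3.69, a −log10 q of 0.831 and a pileup of 11. Those at 156213885 to 156214093 (209 bp, summit 156213923) and 156230970 to 156231174 (205 bp, summit 156231025) each had a fold of 2.98, a −log10 p of 4.28, a −log10 q of 1.26 and a pileup of 12. All 3 missed a q of 0.05.

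The R848 peaks in the body of Phf20 were weak as well. Those at 156213378 to 156213628 (251 bp, summit 156213489) and 156299127 to 156299326 (200 bp, summit 156299157) had a fold of 3.04, a −log10 p of 4.03, a −log10 q of 1.01 and a pileup of 10 each. That at 156284654 to 156284853 (200 bp, summit 156284692) had a fold of 2.76, a −log10 p of 3.40, a −log10 q of 0.581 and a pileup of 9. That at 156304973 to 156305222 (250 bp, summit 156305212) had a fold of 2.49, a −log10 p of 2.81, a −log10 q of 0.233 and a pileup of 8. In all 4 the q-value was above 0.05.

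Mcrs1 (chromosome 15, 99242817 to 99251961, minus strand) had a start peak in both lists, on ground it shares with the long non-coding RNA gene 1700120C14Rik. In the untreated list the peak at 99251415 to 99252204 (790 bp, summit 99251878) had a fold of 3.42, a −log10 p of 5.55, a −log10 q of 2.28 and a pileup of 14. The R848 peak at 99252043 to 99252242 (200 bp, summit 99252101) had a fold of 3.04, a −log10 p of 4.03, a −log10 q of 1.01 and a pileup of 10. They overlapped by 162 bp, with summits 83 bp past and 140 bp before the start at 99251961, and both summits lay inside 1700120C14Rik. A further R848 peak at 99235842 to 99236041 (200 bp, summit 99235942), inside the potassium channel gene Kcnh3, had a fold of 2.63, a −log10 p of 3.18, a −log10 q of 0.556 and a pileup of 9.

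Wdr5 (chromosome 2, 27515147 to 27536535, plus strand) was the only member with a start peak in the R848 list alone. The peak at 27514927 to 27515126 (200 bp, summit 27515027) had a fold of 3.59, a −log10 p of 5.41, a −log10 q of 2.07 and a pileup of 12, and ended 21 bp before the start. The nearest untreated peak was 24820 bp from that start. It lay past the gene at 27539967 to 27540389 (423 bp, summit 27540071), with a fold of 2.98, a −log10 p of 4.28, a −log10 q of 1.26 and a pileup of 12. Its summit was 355 bp from a start of the long non-coding RNA gene Gm13421. The 12 fragments of the R848 start peak have an exact Poisson interval of 6.20 to 21.0. Scaled to the untreated depth the lower bound is 7.98, just under the lowest called pileup of 8. Here too the counting error of the other library is left out.

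**Figure D3:**
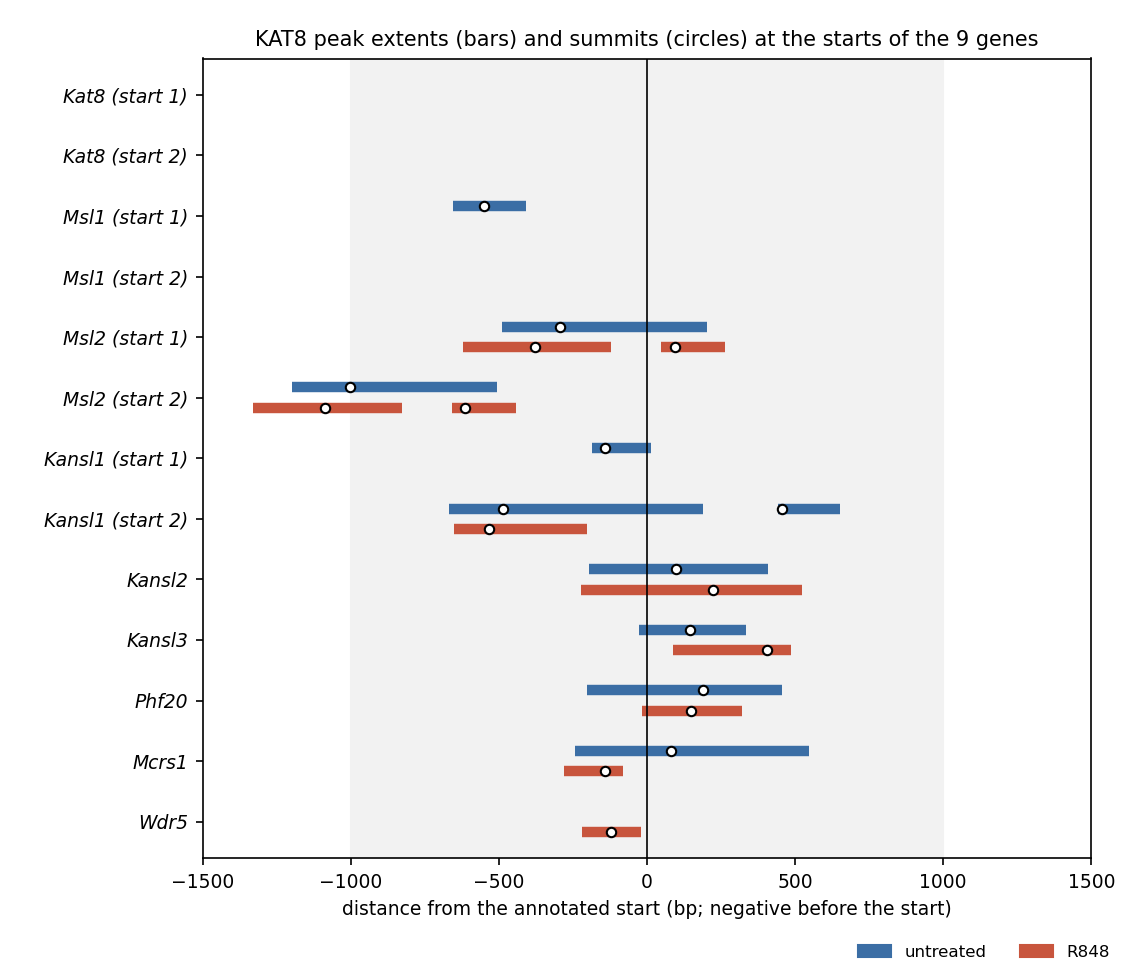
Extents (bars) and summits (circles) of untreated and R848 peaks around the annotated starts of the 9 genes, by distance from the start in bp, negative before it; the grey band is the 1000 bp window, Kansl1 start 2 stands for the inner starts at 104442320 and 104442291, and peaks near a pair of starts of Msl2 are drawn in both rows. Kat8 has no bar, Msl1 has an untreated bar only and Wdr5 an R848 bar only.

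Of the 17 untreated peaks in the windows, 9 (52.9%, exact binomial 95% interval 27.8 to 77.0) shared 1 bp or more with an R848 peak, and of the 17 R848 peaks, 10 (58.8%, 32.9 to 81.6) overlapped an untreated peak. Over the whole lists the shares were 31% and 35.8%. At the members' starts 6 of 9 untreated and 7 of 8 R848 peaks were shared, against 56.2% and 67.1% for all peaks within 1000 bp of a protein-coding start. Away from the members' starts 3 of 8 and 3 of 9 were shared, namely those in Prss36, at Casc3 and deep inside Msl2. The whole lists, start peaks included, stand at 31% and 35.8%, and a share without start peaks was not worked out.

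Shared peaks had the higher median fold in each list, though the ranges overlapped. A call in both lists itself depends on peak strength, and the same medians over the whole lists are not given here. The 9 shared untreated peaks had folds of 2.98 to 12.4 (median 4.35) and the 8 found in that list only 2.29 to 3.89 (median 2.98). The 10 shared R848 peaks had folds of 2.76 to 12.4 (median 3.18) and the 7 others 2.21 to 3.59 (median 2.76). Of the 8 untreated peaks without a partner, 2 would fall below the lowest pileup called in the R848 list at its depth, those past the end of Kat8 and at the upstream start of Kansl1. By pileup alone, all 7 R848 peaks without a partner would reach the lowest untreated pileup called, if pileup scaled with the background. At the lower bounds of their Poisson intervals, 0 of these 7 would.

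The overlapping peaks form 10 pairs, since the pair of R848 peaks at the Msl2 start meets 1 untreated peak. Each summit pileup was divided by the lowest background of its library. The quotient was higher before stimulation in 6 pairs and after it in 4, and the exact Poisson intervals overlapped in all 10. The widest gaps at starts were at Kansl2, with 7.72 (5.04 to 11.3) in the untreated and 4.58 (2.37 to 8.004) in the R848 library, and at Kansl3, with 6.83 (4.33 to 10.2) and 3.44 (1.57 to 6.52). Phf20 had 5.34 (3.17 to 8.44) and 5.35 (2.92 to 8.97). The peak inside Msl2 had 16.03 (12.04 to 20.9) and 16.8 (12.2 to 22.6). The overlap of separate intervals is no test of a difference, and none was made with 1 library a group.

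**Figure D4:**
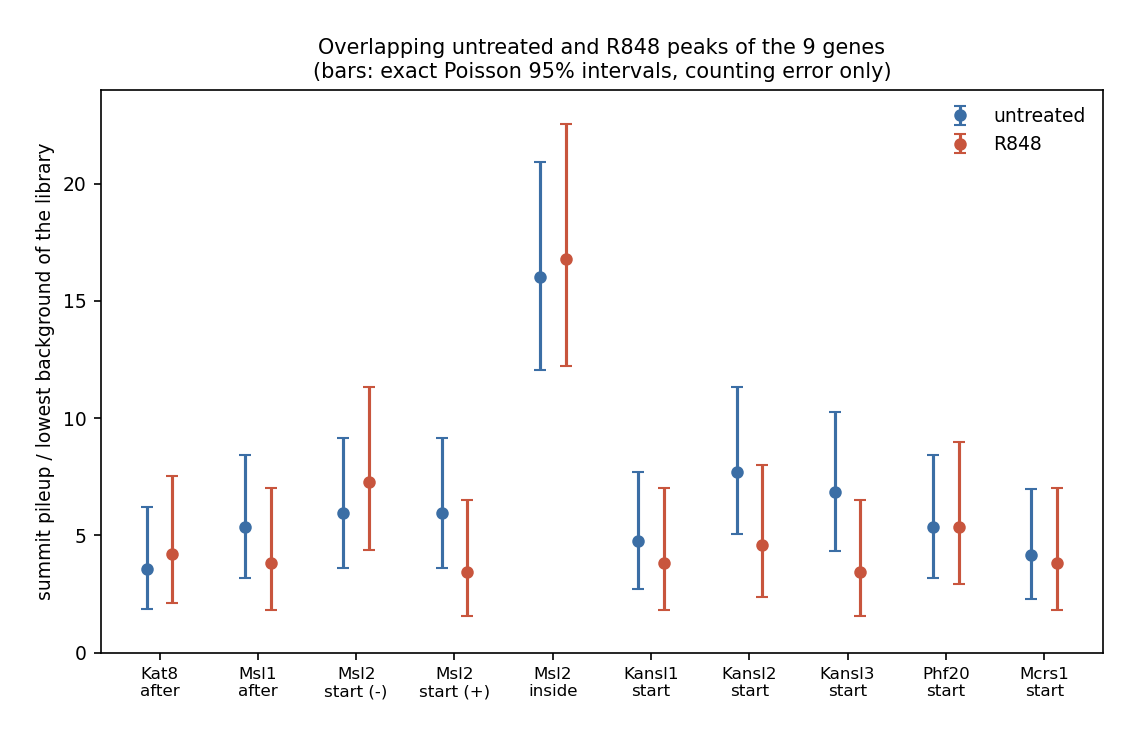
Summit pileup divided by the lowest background of its library for the 10 pairs of overlapping untreated and R848 peaks; bars are exact Poisson 95% intervals for counting error only, and the marks (-) and (+) at Msl2 stand for the R848 peaks before and after the start, each beside the same untreated peak. The intervals overlap in every pair, and the pair inside Msl2 stands highest at 16.03 and 16.8.

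A stricter threshold left fewer members in the R848 list. With only peaks of q 0.05 or less, 7 members had a start peak in untreated cells and 4 after R848 (Msl2, Kansl2, Phf20 and Wdr5), and 3 in both. The shares over all genes with a start were 17.3%, 15.4% and 11%. In the 10 kb windows 7 and 5 members had such a peak, against 38.1% and 37.2% of all genes. The R848 start peaks of Kansl1, Kansl3 and Mcrs1, with pileups of 10, 9 and 10, missed that threshold.

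The 9 untreated start peaks had summits 83 to 551 bp (median 191) from the nearest annotated start, 5 of them past it and 6 of them within 300 bp. The 8 R848 start peaks had theirs at 94 to 534 bp (median 187), 4 of them past it and 5 within 300 bp. Over all genes 4713 untreated and 3966 R848 summits were within 1000 bp of a protein-coding start, at a median of 138 and 139 bp, with 77.9% and 77.1% within 300 bp, and 50.01% and 48.1% lay past it. The start summits of Kansl2, Kansl3 and Phf20 were past the start in both lists.

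The promoter letters were searched on both strands for 7 motifs. GGGCGG, the core of the GC box bound by SP factors, was found in 12 of the 14 member promoters, from 8 of the 9 genes, against 35.7% of all 32851 promoters. Kansl3 alone had none. The promoters of the inner Kansl1 starts overlap, so their GGGCGG matches are the same letters counted again. CCAAT, the box bound by NF-Y, was found in 6 of the 14 member promoters, against 37.4% of all promoters. Those 6 belong to Kat8, Kansl1, Kansl2, Kansl3 and Phf20. CCGGAAG, an ETS-type motif, occurred in 2 of the 14, at Kat8 and Mcrs1, against 8.86% of all promoters. The 2 matches of Mcrs1 lay 26 bases before and 8 bases after the start. ATGGCGG, part of a YY1-type motif, occurred in 2 of the 14, at Kat8 and at an inner start of Kansl1, against 4.05%. The E-box letters CACGTG, present in 7.15% of all promoters, were not in these windows. Nor were the TATA-box letters TATAAA (13.6%) or the NRF1 palindrome (0.971%). GGGCGG and ATGGCGG, like the promoters themselves, share G and C letters, and matches are letters only. At Kat8, whose promoters no peak reached, 4 of the 7 motifs had a match.

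Genes around these complexes gave a mixed picture, set against 17.9% of all protein-coding genes with a start that had a start peak in both lists. Of 5 further MSL and NSL genes, 4 have an annotated start here and 1, Kansl1l, had a start peak, in both lists (fold 3.89 and 3.87). The X-linked Msl3, Ogt and Hcfc1 had no peak in their 10 kb windows in either list. All 3 other MYST acetyltransferase genes with a start had a start peak in both lists: Kat6b (7.29 and 6.86), Kat7 (4.35 and 3.87) and Kat5 (2.29 and 2.76). Of 4 genes for WDR5 partners in the MLL/SET1 complexes, 2 had one in both lists, Kmt2a (4.35 and 4.97) and Setd1a (2.75 and 2.76, at separate places). Sirt1 (2.52 and 2.76) and Sirt2 (2.98 and 3.59), deacetylases known to act on H4 lysine 16, had one in both. Kat8 thus had no start peak where those 3 relatives had one.

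Marker genes of several cell types were looked up as well. A KAT8 peak does not measure expression, so these counts cannot settle the cell type. Of 7 macrophage markers with an annotated start, 3 had a start peak before stimulation and 4 after it, against 28.7% and 24.1% of all genes. Cebpa, Cebpb and Cd68 had one in both lists, those of Cebpa at separate places. Mertk had one in the R848 list only, while Lyz2, Itgam and Fcgr1 had none in either. Of 3 lymphoid, 2 stromal and 4 neutrophil markers with a start, 0 had a start peak in either list. In the wider 10 kb windows, 11 of 12 macrophage markers had a peak in each list, against 64% and 58.7% of all genes. There 1 of 5 lymphoid, 2 of 4 stromal and 1 of 4 neutrophil markers had one in the untreated list, and 3, 3 and 1 after R848. Col1a1, a collagen gene of stromal cells, had 2 window peaks in each list. The labels do not say how many animals the marrow came from.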

How the data were processed

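KAT8 CUT&Tag of mouse bone marrow-derived macrophages gave 1 library per group, and groups follow the treatment label. The authors deposited 1 narrowPeak list per library, each peak having a score, a fold (ratio to background) and −log10 values of p and q. Scores deposited equal 10 times −log10 p within 1. Per the submitters' processing notes, Bowtie 0.12.8, MACS2 2.2.7.1, DiffBind and mm10 were used, with no role stated. Caller settings and any control library: not given in the sources used here. Names of the R848 peaks carry both time points; whether that list is the stimulated library alone was not settled, and the label was followed. The lowest −log10 p was 2.01 in both lists, and read totals are unknown.

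Peaks were read with pandas 2.3.3 and assigned by any base within gene ± 10 kb or 1000 bp of a start. Genes and starts came from RefSeq tables of GRCm38.p6, and all 9 members matched; exons and introns were not used here. Pileup and background were solved with scipy 1.17.1 from the fold, a quotient of both with 1 added to each, and the Poisson p, and came out whole within 0.05 in all peaks solved. Overlap code was checked against bedtools 2.31.1 and tested on simulated data. The members, gene lists and windows were chosen with earlier results of these data known. Named are all members, protein-coding genes with an end within 1000 bp of a window summit, and up to 4 genes per list. Prss36, Kcnh3, non-coding neighbours and 3 more macrophage markers (Lyz2, Itgam and Fcgr1), and the classes of window length and CpG, were added after values were seen. Intervals are 95% exact binomial or Poisson. Alternatives were windows of 1 kb, start windows of 500 and 3000 bp, summits in the window, q of 0.05, lists of equal length, and overlap by 50% of each peak or by summits within 250 bp. No paired analysis was possible because each group has 1 library.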

Additional observations from a re-analysis of the deposited data

How the results depend on the processing

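The counts of members with a window peak (9 and 9 of 9) and a start peak (7 and 7 of 9) depended mainly on the significance threshold. With q of 0.05 or less in both lists, R848 window peaks were left at 5 members and R848 start peaks at 4, while the untreated counts were 7 and 7. Under that threshold 4 of 10 untreated and 4 of 6 R848 window peaks were shared, and 5 of 6 R848 peaks where any untreated peak counted. The remaining 25 of 30 alternative values of these counts stayed within 1.5 times the value reported. Of 72 alternative counts of peaks per gene 16 did not, 8 of them under the q threshold. Without it, windows of 1 kb left 0 R848 peaks at Kat8 and Msl1, 0 untreated peaks at Wdr5, and 1 at Mcrs1 (R848), Kat8 and Msl1 (untreated). Kat8 likewise had 1 untreated peak by summits in the window and in lists of equal length. Windows of 1 kb left 8 and 7 members with a peak, and summits within 250 bp left 7 shared peaks in each list. No paired analysis was possible because each group has 1 library. Peak heights of 7 to 26 fragments, outside the Msl2 interior, limit what can be seen.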
